A study of Mus musculus with 27 samples.

Results

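The insulin-like growth factor (IGF) axis was followed through muscle regeneration in 10 genes of 55852 entries in the table of injured muscle, all chosen by gene name and all found once in each deposited table. These were the ligands Igf1 and Igf2, the receptor Igf1r, the binding proteins Igfbp2, Igfbp3, Igfbp4, Igfbp5, Igfbp6 and Igfbp7, and H19, a long noncoding RNA that is the imprinted neighbour of Igf2. Of these, 10 passed a filter on low values (at least 1 TPM in at least 3 libraries) in the injured table, as did 15718 entries in all, and 9 passed it in the control table, where Igfbp2 did not.

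RNA came from the muscle of male mice injected with cardiotoxin (CTX), a snake venom peptide that lyses myofibres while regeneration follows. The study names C57BL/6J for its purchased WT mice. For the KO line it refers to earlier work and does not state the strain. The injured groups were WT and Gsdme KO muscle on D1, D4, D7 and D14 after CTX, with 3 libraries per genotype and day, and the control group was 3 libraries of WT muscle without CTX. All 9 groups came from the mouse, the KO animals lacked Gsdme (gasdermin E, which forms membrane pores after caspase cleavage) in the whole body, and the age of the RNA-seq animals was not given. The titles of the KO samples read KO and their genotype field reads knockdown, and the muscle is called gastrocnemius in one place and thigh in another, so that KO below means the libraries with KO in the title. The control is described as the contralateral uninjured muscle in the study and as unloaded in the deposited design, and the study describes 2 sequencing batches, of which the first held injured and contralateral muscle a day after injury and the second the WT and KO time course. Since the deposited values of the WT D1 libraries appear in the table of each, it is unknown which batch they came from.

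Values were TPM, in which reads are set against gene length and every library is brought to one total, so that the depth of the libraries is unknown and levels of different genes can be set side by side. All 8 mature myofibre markers (among them Acta1, Ckm and Myh4) were at 1 TPM or more in every library, which fits the label of skeletal muscle. From 11785 to 14704 genes were at 1 TPM or more per library, and KO D4 replicate 2 (12961) and KO D7 replicate 2 (12849) held fewer than the other libraries of their groups. Gsdme averaged 3.59, 2.77, 2.15 and 1.98 TPM in WT muscle on D1, D4, D7 and D14 and 1.66, 1.33, 1.11 and 1.67 TPM in KO muscle, its KO and WT libraries overlapped on D14 alone, and the average difference over the days was -0.55 ± 0.09 on the log2(TPM + 1) scale (limma, adjusted p = 0.0664), just short of the threshold.

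IGF1 and IGF2 are secreted peptides that act through the tyrosine kinase receptor encoded by Igf1r, drive myoblast proliferation and differentiation, and in muscle are made locally as well as arriving from blood. The classical binding proteins hold IGFs in the extracellular space, prolong or block their access to the receptor, and release them on proteolysis, whereas Igfbp7 encodes a related protein with low affinity for IGFs. Igf2 is expressed from the paternal chromosome and H19 from the maternal one, under a shared imprinting control region. Both are abundant in fetal muscle and rise during repair.

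In GENCODE M21 (GRCm38, the assembly also called mm10, which the submitters named), H19 (ENSMUSG00000000031, lincRNA) lies on the minus strand of chromosome 7 at chr7:142575529-142578143, and Igf2 (ENSMUSG00000048583, protein coding) lies on the same strand at chr7:142650766-142666816, with 72622 bases between them. Igfbp2 (chr1:72824503-72852474, plus strand) and Igfbp5 (chr1:72857932-72874884, minus strand) are also neighbours, tail to tail, with 5457 bases between them. The other genes are Igf1 (chr10:87858265-87937042, plus strand), Igf1r (chr7:67952827-68233668, plus strand), Igfbp3 (chr11:7206086-7213923, minus strand), Igfbp4 (chr11:99041244-99054392, plus strand), Igfbp6 (chr15:102144362-102149511, plus strand) and Igfbp7 (chr5:77349240-77408041, minus strand). Igf2 is overlapped by the antisense gene Igf2os and by Gm49394, and Igf1 by the antisense gene Igf1os, and since the use of strand was not stated, reads of these genes cannot be told apart. Igf2os reached 1.22 TPM at most, Gm49394 0.25 TPM and Igf1os 1.2 TPM.

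H19 and Igf2 each carry a microRNA gene, Mir675 within an exon of H19 and Mir483 within an intron of Igf2, and both rows were listed at 0 in all libraries of both tables. Those libraries were prepared for mRNA, and mature microRNAs were not measured. The mature sequences are shown because they are encoded within the 2 genes of the axis with the largest rises in log2(TPM + 1) from D1 to D4 in WT muscle. They are from RefSeq on GRCm38.p6, 5′ to 3′, with the seed (bases 2 to 8) in capitals, and the 4 seeds all differ.
miR-675-5p (chr7:142577112-142577133, minus strand): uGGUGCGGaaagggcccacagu
miR-675-3p (chr7:142577078-142577099, minus strand): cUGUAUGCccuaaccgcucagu
miR-483-5p (chr7:142654968-142654989, minus strand): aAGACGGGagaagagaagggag
miR-483-3p (chr7:142654932-142654952, minus strand): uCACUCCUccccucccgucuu

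Promoter windows of 300 bases (250 before and 50 after a RefSeq start site) were available for 9 of the 10 genes, H19 being the one without, and came to 13 windows since Igf2 has 4 and Igfbp2 has 2. They were searched on both strands for 5 motifs, and no matches overlapped. The element CATTCC, bound by TEAD factors, was in 4 of the 13 windows against 14.7% of 32851 promoters of this length, namely 3 of the 4 Igf2 windows and the Igfbp5 window. The E-box CAGCTG, bound by myogenic bHLH factors, was in the Igf1 window alone (16.3% of all promoters), the TATA box TATAAA in those of Igfbp4 and Igfbp6 (13.6%), the AP-1 site TGACTCA in 1 Igfbp2 window (5.20%), and the GC box GGGCGG in 5 windows (35.7%), of Igf1r, Igf2, Igfbp2 and Igfbp7. The stretches of 30 bases around the matches to CATTCC in Igf2 and Igfbp5 and to CAGCTG in Igf1 are shown because Igf2 and Igf1 are the ligands, and their messages moved between days of repair. The stretches read 5′ to 3′ on the gene's strand with the match in capitals (GGAATG is CATTCC on the other strand).
Igf2, 218 bases before the start site (chr7:142661472-142661501, minus strand): aataattttcctCATTCCccaacttggatt
Igf2, 112 bases before the same start site (chr7:142661366-142661395, minus strand): ctttgggccgctCATTCCcaggaccgcaaa
Igf2, 180 bases before another start site (chr7:142658967-142658996, minus strand): gggtgacgcctcCATTCCtcccccctcaac
Igf2, 163 bases before a further start site (chr7:142657642-142657671, minus strand): gtgctttgctaaGGAATGgtccaaggctag
Igfbp5, 233 bases before the start site (chr1:72875081-72875110, minus strand): gccctttccgtaCATTCCgtgaggaggagg
Igf1, 157 bases before the start site (chr10:87860942-87860971, plus strand): gggaagagaggtCAGCTGcctagagcgatt

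On the log2(TPM + 1) scale the ligand Igf2 had the largest rise of the 10 genes from D1 to D4 in both genotypes. In WT muscle it was at 19.6, 17.4 and 20.7 TPM on D1, at 735, 802 and 583 TPM on D4, then at 380, 276 and 197 TPM on D7 and later at 17.9, 24.4 and 16.9 TPM on D14. The KO libraries held 19.1, 22.2 and 25.4 TPM on D1, 611, 43.2 and 742 TPM on D4, then 241, 83.1 and 187 TPM on D7 and later 14.7, 17.2 and 17.5 TPM on D14. The libraries of D4 lay above those of D1 without overlap in both genotypes, those of D14 lay below those of D7, and KO D4 replicate 2 was far below the other D4 libraries. Mean TPM was 36.8 times higher on D4 than on D1 in WT muscle and 20.9 times higher in KO muscle, and the control muscle held 14.6, 12.9 and 12.4 TPM.

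H19 rose with Igf2 from a much higher level. In WT muscle it was at 1070.2, 562 and 706 TPM on D1, at 5159, 7384 and 5729 TPM on D4, then at 4363, 5154 and 3726 TPM on D7 and later at 987, 963 and 681 TPM on D14. KO muscle had 1465, 1454 and 1255 TPM on D1, 7686, 2015 and 7781 TPM on D4, then 4790.1, 3861 and 5257 TPM on D7 and later 767, 1138 and 1583 TPM on D14. On D1 all KO libraries were above all WT libraries, and on the other days the genotypes overlapped. H19 was the 16th to 19th most abundant entry in the WT D4 libraries and stood at rank 88 to 134 in the WT D14 libraries, and the control muscle held 603, 566 and 648 TPM.

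**Figure D1:**
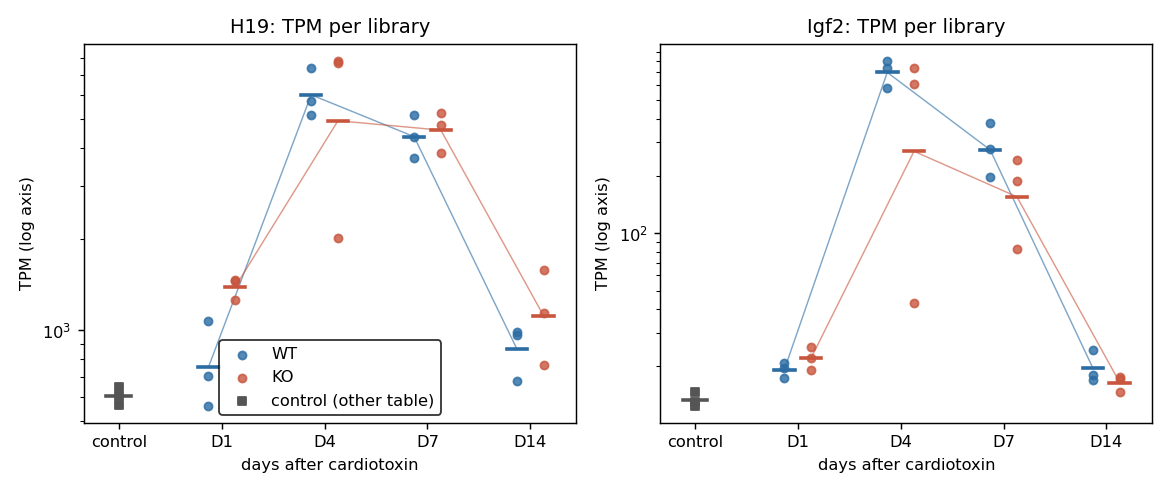
TPM of H19 (left) and Igf2 (right) on a log axis in each library, by day after CTX, with WT in blue, KO in red and control muscle (quantified in another table) as grey squares; bars are geometric means of 3 libraries, joined by thin lines. Both genes peaked on D4, where KO replicate 2 held 43.2 TPM of Igf2 and 2015 TPM of H19.

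The step from D1 to D4 was called in both genotypes for 6 of the 10 genes. Over all entries the share called in both was not counted, and is at most the 19.4% called in KO muscle. Called means an adjusted p under 0.05 in limma fitted across all 15718 entries on log2(TPM + 1), with the Benjamini-Hochberg adjustment, and each difference below is on that scale with its SE. In WT muscle 7 of the 10 genes were called, all higher on D4, against 19.8% of all entries in either direction. Igf2 rose by 5.12 ± 0.66 (adjusted p = 7.48e-05), H19 by 3.00 ± 0.39 (adjusted p = 7.48e-05), Igfbp2 by 2.64 ± 0.37 (adjusted p = 0.000143) and Igfbp4 by 2.02 ± 0.30 (adjusted p = 0.000213). Smaller rises were those of Igfbp6 (1.34 ± 0.35), Igf1 (1.29 ± 0.33) and Igfbp5 (0.76 ± 0.24), with adjusted p of 0.0109, 0.00948 and 0.0325. The median of the 10 genes was 1.32, beside 0.17 over all entries. Of all calls in this step 73.5% were higher on D4 in the deposited scale and from 46.5% to 51.1% under 3 other scalings (median-of-ratios, quantile, and without the 50 most abundant genes). The WT D1 libraries may come from another sequencing batch than the WT D4 libraries, and then day and batch cannot be told apart. The same holds for the WT steps from D1 to D4 in the gene lists below.

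In KO muscle 7 genes were also called from D1 to D4, against 19.4% of all entries. Igf2 rose by 3.56 ± 0.66 (adjusted p = 0.00162), Igfbp2 by 2.25 ± 0.37 (adjusted p = 0.000705), H19 by 1.83 ± 0.39 (adjusted p = 0.00396) and Igfbp6 by 1.78 ± 0.35 (adjusted p = 0.0026). Igfbp4 (1.12 ± 0.30) and Igfbp5 (0.88 ± 0.24) also rose, and Igf1r fell by 0.87 ± 0.25, with adjusted p of 0.016, 0.0182 and 0.0238. Igf1 was called in WT muscle alone (KO difference 0.42 ± 0.33, adjusted p = 0.37) and Igf1r in KO muscle alone (WT difference 0.27 ± 0.25, adjusted p = 0.5), which does not show that the genotypes differ. The F test of whether KO minus WT differs between days called 0 of the 10 genes and 0% of all entries in limma, with 1 gene, Igf1r, at an unadjusted p under 0.05 (adjusted p = 0.527) and 1203 entries in all. That test includes D1, the day on which the WT batch is unknown.

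Several of these calls were lost when 1 library was left out, with the difference in the same direction. In WT muscle the call of Igfbp5 was lost without D1 replicate 1 or 2 or D4 replicate 1 or 2 (differences of 0.78, 0.57, 0.69 and 0.70, adjusted p = 0.0711, 0.121, 0.101 and 0.101, in that order) and under 3 other scalings (adjusted p from 0.0937 to 0.175), and that of Igfbp6 without D1 replicate 3 (1.22, adjusted p = 0.0517) or D4 replicate 3 (0.99, adjusted p = 0.0665). In KO muscle Igf1r was lost without D1 replicate 1, D1 replicate 3 or D4 replicate 2 (differences of -0.82, -0.76 and -0.61, adjusted p = 0.0764, 0.112 and 0.118), Igfbp4 without D1 replicate 3 or D4 replicate 1 (1.08 and 0.77, adjusted p = 0.067 and 0.0596), and Igfbp5 without D1 replicate 1 or D4 replicate 3 (0.80 and 0.75, adjusted p = 0.0709 and 0.0707). When the KO steps were fitted on the compared groups alone, from D1 to D4 and from D7 to D14, limma called 0 of the 10 genes in each, with 52 and 7 of all 15718 entries called. With KO D4 replicate 2 and KO D7 replicate 2 both left out, Igf2 rose by 4.87 and H19 by 2.48 from D1 to D4 in KO muscle.

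The other ligand, Igf1, which drives growth of regenerating fibres, moved less. It was at 15.8, 20.7 and 13.5 TPM on WT D1, at 51.4, 40.6 and 34.3 TPM on WT D4, then at 39.1, 32.7 and 31.4 TPM on WT D7 and later at 12.7, 12.99 and 7.53 TPM on WT D14. In KO muscle it was at 22.9, 20.8 and 19.6 TPM on D1, 47.3, 14.4 and 33.4 TPM on D4, then 33.0, 14.1 and 27.0 TPM on D7 and later 14.9, 11.8 and 12.5 TPM on D14. The low KO libraries of D4 and D7 were both replicate 2, and the control muscle held 8.49, 10.1 and 8.91 TPM.

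Igf1r, which encodes the receptor, was the lowest of the axis after Igfbp2 in group means, except on D4, when Igfbp2 was above it in both genotypes. It was at 3.41, 4.99 and 2.93 TPM on WT D1, at 6.96, 3.79 and 3.81 TPM on WT D4, then at 4.28, 3.42 and 3.14 TPM on WT D7 and later at 1.57, 2.53 and 1.70 TPM on WT D14. For KO libraries the values were 6.35, 4.49 and 7.02 TPM on D1, 4.01, 1.61 and 3.04 TPM on D4, then 2.66, 2.02 and 2.56 TPM on D7 and later 1.78, 2.96 and 1.85 TPM on D14. Its WT level was highest on D4 and its KO level on D1, and on D7 all KO libraries lay below all WT libraries.

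The binding proteins differed in level and in course. In control muscle the most abundant were Igfbp5 at 204 ± 30 TPM, Igfbp6 at 124 ± 11 TPM and Igfbp7 at 119 ± 4.2 TPM (SD, n = 3), and Igfbp5 stood above the other 2 without overlap while Igfbp6 and Igfbp7 overlapped. On WT D4 the order was Igfbp7 at 471 ± 45 TPM, Igfbp4 at 367 ± 7.7 TPM, Igfbp5 at 235 ± 37 TPM and Igfbp6 at 208 ± 100 TPM, of which Igfbp5 and Igfbp6 overlapped. Igfbp3, the main carrier of IGFs in blood, was at 46.1 ± 14 TPM and Igfbp2 at 9.41 ± 3.9 TPM in the same libraries.

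Igfbp4, an inhibitor of IGF action until it is cut by the protease PAPP-A in the matrix, had its highest level on D4 as Igf2 did. It was at 85.3, 103 and 82.4 TPM on WT D1, at 361, 375 and 363 TPM on WT D4, then at 273, 210.1 and 215 TPM on WT D7 and later at 62.5, 93.0 and 48.8 TPM on WT D14. Among KO libraries the levels were 105, 96.2 and 90.8 TPM on D1, 347, 121 and 229 TPM on D4, then 217, 100.1 and 181 TPM on D7 and later 63.3, 71.6 and 77.2 TPM on D14. All KO D4 libraries lay below all WT D4 libraries, with a narrow range in WT and a wide one in KO muscle.

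Igfbp2, which binds IGF2 with preference, had its highest level on D4. It was at 0.17, 0.95 and 0.74 TPM on WT D1, at 13.1, 9.83 and 5.34 TPM on WT D4, then at 2.98, 2.38 and 0.59 TPM on WT D7 and later at 0.29, 0.06 and 0.07 TPM on WT D14. The KO values were 0.41, 0.13 and 0.35 TPM on D1, 8.54, 2.49 and 6.01 TPM on D4, then 1.68, 0.65 and 1.34 TPM on D7 and later 1.1, 0.43 and 0.52 TPM on D14. All KO D14 libraries were above all WT D14 libraries, at levels near or under 1 TPM, where the log2(TPM + 1) scale understates differences. The D1 levels were under 1 TPM as well, so that the scale also understates the rise from D1 to D4. Mean TPM of Igfbp2 was 15.2 times higher on D4 than on D1 in WT muscle and 19.1 times higher in KO muscle.

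Igfbp5, which is made by differentiating myoblasts, ranged from 101 to 257 TPM over the WT libraries and from 105 to 263 TPM over the KO libraries, with the highest group mean on D4 in both. Igfbp6, which binds IGF2 with preference, was lowest on D1 (71.1, 95.2 and 62.8 TPM in WT, 75.9, 63.0 and 42.9 TPM in KO) and at 122, 185 and 317 TPM on WT D4 and 237, 237 and 153 TPM on KO D4. Igfbp7 was at 373, 397 and 248 TPM on WT D1 and at 191, 220 and 140 TPM on WT D14, and Igfbp3 ranged from 14.6 to 68.4 TPM over the 24 injured libraries. The mean TPM of D14 over that of D1 was 2.04 for Igfbp6 and 0.541 for Igfbp7 in WT muscle and 2.57 and 0.473 in KO muscle.

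**Figure D2:**
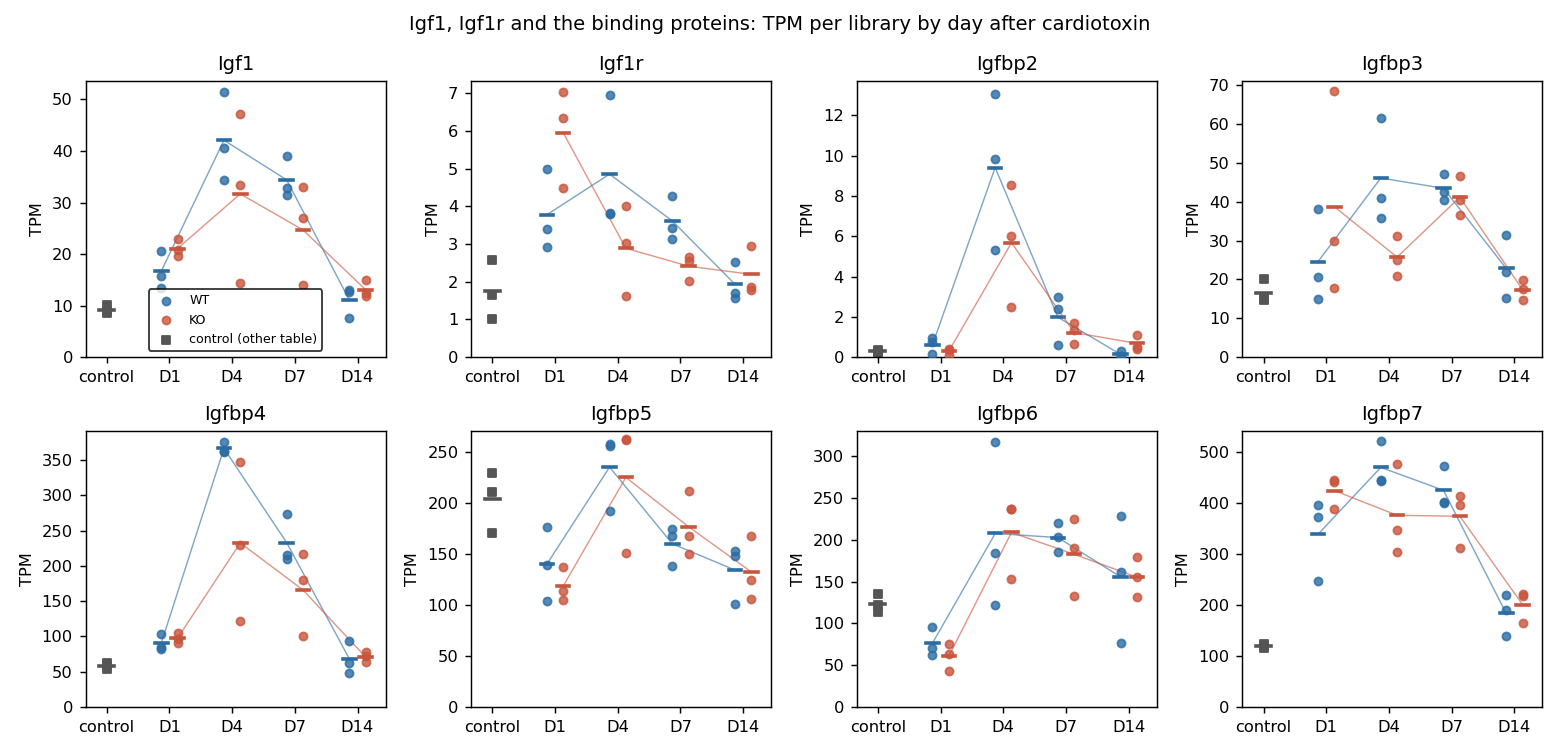
TPM on a linear axis of Igf1, Igf1r and the 6 binding protein genes in each library, by day after CTX, with WT in blue, KO in red and control muscle as grey squares; bars are means of 3 libraries, joined by thin lines. Igf1, Igfbp2 and Igfbp4 peaked on D4 in both genotypes, while Igfbp6 was lowest on D1 and Igfbp7 was lowest in control muscle (119 TPM).

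After D4 the calls in the axis were all lower, and Igf1r, Igfbp3, Igfbp5 and Igfbp6 were called in neither genotype. From D4 to D7 in WT muscle 1 of the 10 genes was called, against 12.3% of all entries, and this was Igfbp2, which fell by 1.83 ± 0.37 (adjusted p = 0.00836), a call lost without D4 replicate 1 (adjusted p = 0.0591) or D7 replicate 3 (0.0615). Igf2 was lower by 1.35 ± 0.66 and not called (adjusted p = 0.159), although its D7 libraries lay below its D4 libraries without overlap. From D4 to D7 in KO muscle limma called 0 genes of the axis and 0% of all entries, with Igfbp2 at an unadjusted p of 0.000693 (adjusted p = 0.191), and without KO D4 replicate 2 both Igf2 and Igfbp2 were called (2 genes).

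From D7 to D14 in WT muscle 6 of the 10 genes were called, all lower, against 31.8% of all entries. Igf2 fell by 3.75 ± 0.66 (adjusted p = 0.00348), H19 by 2.34 ± 0.39 (adjusted p = 0.00301), Igfbp4 by 1.80 ± 0.30 (adjusted p = 0.00306) and Igfbp7 by 1.23 ± 0.20 (adjusted p = 0.00301). Igf1 fell by 1.58 ± 0.33 (adjusted p = 0.00648), a call lost without WT D14 replicate 3 (0.0527), and Igfbp2 by 1.29 ± 0.37 (adjusted p = 0.0179), a call lost without WT D7 replicate 1 (0.1), WT D7 replicate 2 (0.0571) or WT D14 replicate 3 (0.0796). All entries had a median of -0.45 in this step, and after median-of-ratios scaling, which brought that median to -0.01, Igf2 was at -3.17, H19 at -1.74, Igfbp4 at -1.21, Igf1 at -1.03 and Igfbp7 at -0.64, all still called.

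In KO muscle 2 of the 10 genes were called from D7 to D14, against 0.560% of all entries. Igf2 fell by 3.17 ± 0.66 (adjusted p = 0.0317) and H19 by 2.04 ± 0.39 (adjusted p = 0.0207). Both calls were lost without KO D7 replicate 1 (adjusted p = 0.178 and 0.111), KO D7 replicate 3 (0.164 and 0.114), KO D14 replicate 1 (0.129 and 0.118) or KO D14 replicate 2 (0.102 and 0.0848), and that of Igf2 also without KO D14 replicate 3 (0.094), while the differences in these omissions stayed from -2.06 to -1.78 for H19 and from -3.21 to -2.85 for Igf2, whereas without KO D7 replicate 2 there were 4 called genes. The libraries of D14 lay below those of D7 without overlap in both genotypes.

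**Figure D3:**
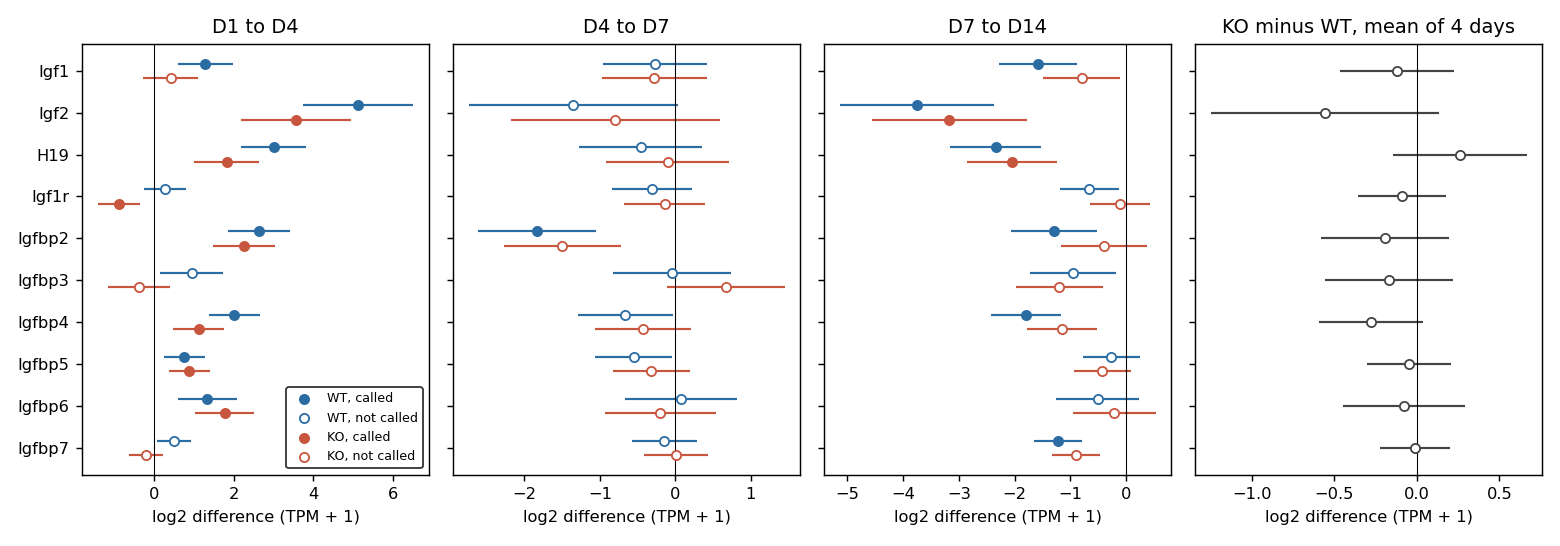
Differences in log2(TPM + 1) for the 10 genes with their 95% intervals, for the 3 steps between days in WT (blue) and KO (red) muscle and for KO minus WT averaged over the 4 days (grey); filled points were called. Igf2 has the widest intervals and the largest steps from D1 to D4 and from D7 to D14, Igfbp2 the largest from D4 to D7, and no gene was called between genotypes.

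Whether loss of Gsdme changed the axis was asked on each day. On D1 limma called 0 of the 10 genes, against 0.00636% of all entries, with 2 genes, H19 and Igf1r, at an unadjusted p under 0.05. On D4 it called 0 genes of the axis and 0% of all entries, with 3 genes (Igf1r, Igfbp3 and Igfbp4) and 3568 entries in all at an unadjusted p under 0.05. On D7 and on D14 it called 0 genes of the axis and 0% and 0% of all entries, with 0 of the 10 genes at an unadjusted p under 0.05 on either day. Averaged over the 4 days it called 0 genes, against 0.00636% of all entries, and the exact permutation test of genotype within days (160000 assignments, two-sided) gave p from 0.0924 for Igf2 to 0.924 for Igfbp7.

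The libraries of KO and WT did not overlap for 1 gene on D1 (H19, KO higher), against 6.71% of all entries in either direction. On this day the WT libraries may come from another sequencing batch than the KO libraries, and then genotype and batch cannot be told apart. On D4 this held for 2 genes (Igfbp3 and Igfbp4, KO lower), against 14.0% of all entries. On D7 it held for 1 gene (Igf1r, KO lower), against 16.5%, and on D14 for 1 gene (Igfbp2, KO higher), against 8.42%. With 3 libraries against 3 the smallest two-sided exact permutation p is 0.1, which each of these had, so that no single day could pass 0.05.

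On D4 the intervals of KO minus WT were wide. For Igf2 the difference was -1.37 (95% interval from -2.75 to 0.02, adjusted p = 0.222), for Igfbp4 -0.78 (from -1.41 to -0.15, adjusted p = 0.212), for Igfbp3 -0.79 (from -1.57 to -0.02, adjusted p = 0.217) and for H19 -0.29 (from -1.10 to 0.53, adjusted p = 0.613). All entries had a median of -0.28 in this comparison. Without KO replicate 2 of D4 and D7 the difference of Igf2 on D4 was -0.06, that of H19 0.36, that of Igfbp4 -0.38 and that of Igfbp3 -0.66, none of them called, and H19 was at 0.07 under median-of-ratios scaling and at -0.74 under quantile normalization.

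Markers of other cells moved with these values. On WT D4 the summed TPM of 8 markers of regenerating myofibres (Myh3, Myh8, Myog, Mymk, Mymx, Myod1, Chrna1 and Chrng) was 2167, 1491 and 1335. On KO D4 it was 1016, 58.5 and 1114, the lowest value belonging to replicate 2, in which 7 of the 8 markers were at 1 TPM or more. The 8 markers of fibro-adipogenic progenitors (among them Pdgfra, Col1a1 and Lum) summed to 6541, 6076 and 6964 TPM on WT D4 and to 6886, 1551 and 4514 TPM on KO D4. Those of macrophages summed to from 3178 to 6395 TPM on WT D4 and to 4329, 572 and 3605 TPM on KO D4, the lowest value again in KO D4 replicate 2. In the same library markers of adipocytes summed to 1116 TPM (from 110.0 to 364 TPM in the other D4 libraries), those of Schwann cells to 1711 TPM (from 175 to 486 TPM) and those of mature myofibres to 99500.2 TPM (from 28257 to 80532 TPM). In bulk muscle, fewer cells of a type and less RNA per cell cannot be told apart, and the part of these cells in the levels of Igf2, H19 and the binding proteins was not tested.

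**Figure D4:**
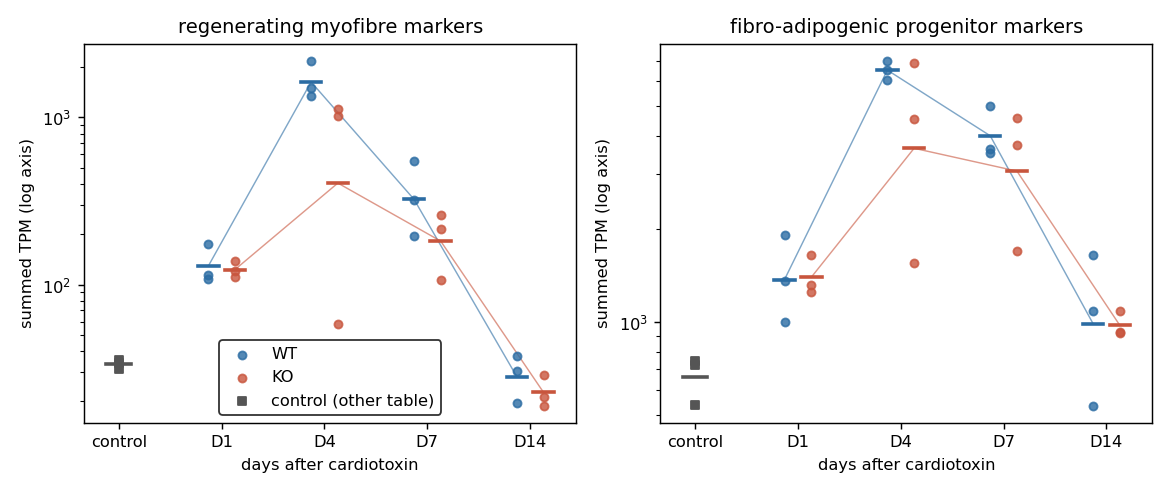
Summed TPM on a log axis of 8 markers of regenerating myofibres (left) and 8 markers of fibro-adipogenic progenitors (right) in each library, by day after CTX, with WT in blue, KO in red and control muscle as grey squares; bars are geometric means. KO D4 replicate 2 held 58.5 TPM of the first and 1551 TPM of the second, below the other D4 libraries.

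The balance of H19 to Igf2 within a library, which does not depend on the scaling of the library beyond the pseudocount of 1, was higher in KO muscle. As log2((H19 + 1)/(Igf2 + 1)) it was 5.70, 4.93 and 5.03 on WT D1, 2.81, 3.20 and 3.29 on WT D4, then 3.52, 4.22 and 4.23 on WT D7 and later 5.71, 5.25 and 5.25 on WT D14. KO libraries stood at 6.19, 5.97 and 5.57 on D1, 3.65, 5.51 and 3.39 on D4, then 4.30, 5.52 and 4.80 on D7 and later 5.61, 5.97 and 6.42 on D14. The genotypes did not overlap on D4 or D7, 10 of the 12 KO libraries were above the highest WT library of their day, and none was below the lowest (0).

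Averaged over the 4 days, KO exceeded WT by 0.81 in this log2 ratio (exact permutation of genotype within days, two-sided p = 0.000188, adjusted p = 0.00075 over the 4 quantities tested). By day the difference was 0.69 (D1), 1.08 (D4), 0.89 (D7) and 0.60 (D14), with exact p of 0.2, 0.1, 0.1 and 0.2. It was 0.57 without KO replicate 2 of D4 and D7 (exact permutation p = 0.0008), 0.86 without D1 (exact permutation p = 0.001), the day on which the WT batch is unknown, and from 0.65 to 0.91 when each library was left out in turn (largest exact permutation p = 0.0012). Neither gene was called on its own, the KO minus WT average being 0.26 ± 0.19 for H19 and -0.56 ± 0.33 for Igf2. The ratio was chosen with earlier results of these data known. Markers of regenerating myofibres summed to from 1335 to 2167 TPM on WT D4 and from 58.5 to 1114 TPM on KO D4. On the other days their WT and KO libraries overlapped, whereas some other marker sets were apart. On D7 markers of macrophages summed to from 1609 to 2132 TPM in WT and from 581 to 1503 TPM in KO muscle. Those of mature myofibres (WT from 76005 to 82680 TPM, KO from 87152 to 138416 TPM) and adipocytes (WT from 88.9 to 139.8 TPM, KO from 148 to 231 TPM) were apart too. The remaining sets overlapped on D7. Markers of endothelial cells were apart on D1, and those of adipocytes and neutrophils on D14. The part of cell makeup or stage of repair in this ratio was not tested.

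**Figure D5:**
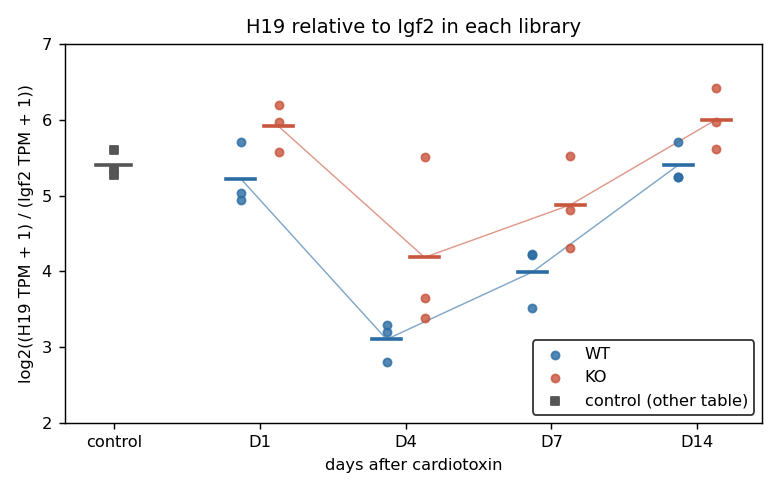
The log2 ratio of H19 to Igf2 (TPM + 1) in each library, by day after CTX, with WT in blue, KO in red and control muscle as grey squares; bars are means of 3 libraries and the axis runs from 2 to 7. The ratio was lowest on D4 (mean 3.10 in WT and 4.18 in KO muscle), and the KO mean was above the WT mean on all 4 days.

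The same ratio fell and returned with time. It was 5.27, 5.35 and 5.60 in control muscle, and over both genotypes it fell by 1.92 from D1 to D4 (exact permutation of day within genotype, p = 0.005, the smallest possible, adjusted p = 0.01 over 12 such tests) and rose by 1.27 from D7 to D14 (exact permutation p = 0.005, adjusted p = 0.01). The rise of 0.79 from D4 to D7 had an exact permutation p of 0.065. These tests of steps were chosen after the data were seen. The step from D1 to D4 includes the WT D1 libraries, whose batch is unknown.

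The balance of the 2 ligands turned to Igf2 on D4. As log2((Igf1 + 1)/(Igf2 + 1)) it was -0.29, 0.24 and -0.58 on WT D1, -3.81, -4.27 and -4.05 on WT D4, then -3.25, -3.04 and -2.61 on WT D7 and later -0.47, -0.86 and -1.07 on WT D14. In the KO group the values were 0.25, -0.09 and -0.36 on D1, -3.66, -1.52 and -4.43 on D4, then -2.84, -2.48 and -2.75 on D7 and later 0.02, -0.50 and -0.45 on D14. The ligands stood near parity on D1 in both genotypes, in every library Igf2 exceeded Igf1 on D4 and D7, and the step from D1 to D4 was -3.49 over both genotypes (exact permutation p = 0.005, adjusted p = 0.01). This step too includes the WT D1 libraries of unknown batch. KO exceeded WT by 0.44 on average over the days (exact permutation p = 0.0418, adjusted p = 0.0835 over the 4 quantities), and without KO replicate 2 of D4 and D7 by 0.20 (exact permutation p = 0.15). Left out singly, 14 of the 24 libraries took its p above 0.05 (exact permutation p up to 0.134), among them KO D4 replicate 2 (difference 0.23, p = 0.101).

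Igfbp5 held 38.8% ± 3.1 of the summed TPM of Igfbp2 to Igfbp7 in control muscle and 21.7% ± 8.2 on WT D1 in the same table (SD, n = 3), a difference of -17.2 percentage points with libraries that did not overlap (exact permutation p = 0.1, the smallest possible). Igfbp7, which is part of the sum, was at 119 ± 4.2 TPM in control muscle and 340 ± 80 TPM on WT D1. Igfbp5 itself was at 204 ± 30 and 141 ± 36 TPM (SD, n = 3), so that the share moved with both genes. The D1 libraries may come from another batch than the control libraries. In injured muscle the group means of the Igfbp5 share were from 15.0% (WT D7) to 24.3% (WT D14). KO minus WT averaged 0.17 percentage points over the days (exact permutation p = 0.932). The sum of the 6 genes rose to 1336 ± 24 TPM on WT D4 and 1074 ± 267 TPM on KO D4 from 671 ± 78 and 740 ± 54 TPM on D1 (SD, n = 3).

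Injury at D1 was compared with control muscle in the table that holds both, where the D1 libraries may likewise come from another batch than the control libraries, in which case injury and batch cannot be told apart. Of 9 genes tested 6 were called, 5 higher and 1 lower on D1, against 61.1% of all entries, and since the median of all entries was 0.66 in this comparison the calls below are given with 3 other scalings. Igfbp7 was higher by 1.47 ± 0.20 (adjusted p = 0.00172), and stayed called at 0.68 to 1.05 under 3 other scalings, rising from 116, 124 and 119 TPM in control muscle to 373, 397 and 248 TPM. Igfbp6 was lower by 0.70 ± 0.19 (adjusted p = 0.0134), and was lower by 1.23 to 1.49 under the other scalings, all called. Igf1 (0.78), Igf1r (0.82), Igfbp4 (0.57) and Igf2 (0.50) were called higher in the deposited scale and by none of the other 3 scalings, where Igf2 was at -0.25 and Igfbp4 at -0.21 under median-of-ratios scaling, and Igfbp5 was called lower under each of those 3 (from -1.33 to -0.97), so that the split of the 3 calls there was 1 higher and 2 lower. Without control replicate 1 the calls of Igf1, Igf1r, Igf2, Igfbp4 and Igfbp6 were lost (differences of 0.73, 0.81, 0.56, 0.51 and -0.64, adjusted p from 0.0547 to 0.0847), leaving Igfbp7. Those of Igf1r and Igf2 were also lost without other single libraries (differences from 0.61 to 0.86 and from 0.44 to 0.48, adjusted p from 0.0589 to 0.131), and with the replicate number as a block Igfbp5 was called lower while Igf1r (adjusted p = 0.0558) and Igf2 (0.0965) were not.

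Levels of control and D14 muscle come from tables quantified separately and were not tested. Both tables hold the WT D1 libraries, and each of the 10 genes had TPM in the injured table from 0.989 to 1.04 times that in the control table. Side by side, Igf2 was at 13.3 ± 1.2 TPM in control muscle, 19.7 ± 4.0 on WT D14 and 16.4 ± 1.5 on KO D14, and Igfbp7 at 119 ± 4.2, 184 ± 40 and 201 ± 32 TPM (SD, n = 3). H19 was at 606 ± 41 TPM in control muscle and at 877 ± 170.3 and 1163 ± 408 TPM on WT and KO D14 (SD, n = 3).

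Genes whose 8 group means ran most like those of a member are given as a description (Pearson's r over 8 means that share their libraries, among genes spanning at least 1 on the log2 scale). For Igf2 these were Cd248, Vstm4, Myh8 (perinatal myosin heavy chain, a marker of regenerating fibres), Nudt14 and Col14a1, with r from 0.996 to 0.998. For H19 they were Ucma, Clip3, L3hypdh, Sdsl and Mapk8ip1, with r from 0.98 to 0.992. Igf1 ran with Smo, Fhl2, Fam114a1, Ccn4 and Ctnnd1 (0.992 to 0.997), and Igf1r with Adss, Sinhcaf, Gxylt1, Ggta1 and Tbp (0.991 to 0.997).

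Of the binding proteins, Igfbp4 ran with Ltbp3, Ccdc80, Marveld1, Capn6 and Loxl2 (0.995 to 0.998), several of which encode extracellular matrix proteins. Igfbp2 ran with Lman2l, Dnai1, Cyp46a1, Prkaca and Platr14 (0.984 to 0.995), and Igfbp3 with Pde2a, Aplnr, Crabp1, Sh3bp4 and Rbms3 (0.943 to 0.962), the lowest likeness of the axis. Igfbp5 ran with Folr1, Myl9, Klhdc8b, Smtn and Susd2 (0.976 to 0.985), of which Myl9 and Smtn are smooth muscle genes. Igfbp6 ran with Ptges3l, Ctsf, Thra, Clybl and Efhd1 (0.983 to 0.993), and Igfbp7 with Lxn, Dip2a, 1600012H06Rik, Tsc22d4 and Ptpn9 (0.986 to 0.996).

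The remaining genes of the pathway were followed in 3 lists, which were chosen with earlier results of these data known. Of 18 genes for IGF bioavailability and further receptors, 11 were tested. From D1 to D4 in WT muscle 3 were called, against 19.8% of all entries, and the median of the list was 0.18 beside 0.17 over all entries. The 3 rose: Grb10, an imprinted adaptor that restrains receptor signalling (2.95 ± 0.48, adjusted p = 0.000422), Htra1, a protease that cuts binding proteins (1.02 ± 0.28, adjusted p = 0.0133), and Igf2r, the scavenger receptor of IGF2 (0.98 ± 0.28, adjusted p = 0.0181). In KO muscle 3 were also called, against 19.4% of all entries, at a median of 0.15 beside -0.15. Grb10 and Htra1 rose and Igf2bp2, an RNA-binding protein that binds Igf2 messages, fell (-1.46 ± 0.40, adjusted p = 0.0173). From D7 to D14 in WT muscle 6 of the 11 fell, against 31.8% of all entries called, at a median of -0.66 beside -0.45. Adam12, a metalloproteinase, led (-3.36 ± 0.70, adjusted p = 0.00646), and in KO muscle 0 were called in limma, against 0.560% of all entries. Between genotypes 0 of the 11 were called on any day, and in WT D1 muscle against control 5 of 10 were called, against 61.1% of all entries and at a median of 0.41 beside 0.66, with Adam12 (2.61) and Igf2bp2 (2.29) higher and Igfals, the acid-labile subunit that stabilises IGF in blood, lower (-1.23).

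Of 20 genes of receptor signalling, all 20 were tested. From D1 to D4 the calls were 2 in WT muscle and 4 in KO muscle, against 19.8% and 19.4% of all entries. Eif4ebp1, a repressor of translation that is inactivated by mTOR, fell in both (-1.21 ± 0.19, adjusted p = 0.000274, and -1.48 ± 0.19, adjusted p = 0.000105). From D4 to D7 in WT muscle 4 fell, against 12.3% of all entries called, Akt1 (-0.94), Akt2 (-0.87), Eif4ebp1 (-0.63) and Mtor (-0.58), and from D7 to D14 another 6 calls were lower, against 31.8%, with Shc1 (-1.28) and Mapk3 (-0.95) first. Their medians followed those of all entries (-0.18 beside -0.24 and -0.41 beside -0.45). On D1 against control 13 of 20 were called, all higher, against 61.1% of all entries called in either direction. Their median was 0.70 beside 0.66 over all entries, with Eif4ebp1 (2.20) and Akt1 (1.52) first. Between genotypes 0 of 20 were called on any day.

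The third list, imprinted genes other than H19 and Igf2, moved with them in time at the median. Since it was chosen with earlier results of these data known, its counts beside those of all entries are a description. Of 24 listed, 21 were tested. From D1 to D4, 16 rose in WT muscle and 10 in KO muscle, against 19.8% and 19.4% of all entries called in either direction. The medians were 2.08 and 1.38 beside 0.17 and -0.15 over all entries. Mest, a gene of embryonic mesoderm, rose by 5.01 ± 0.79 in WT (adjusted p = 0.000305) and by 2.69 ± 0.79 in KO muscle (adjusted p = 0.0238), and Cdkn1c, a cell cycle inhibitor, by 3.17 ± 0.36 (adjusted p = 2.97e-05) and 2.77 ± 0.36 (adjusted p = 0.000131). From D7 to D14 16 of the 21 fell in WT muscle and 6 in KO muscle, against 31.8% and 0.560% of all entries called. Dlk1, a Notch ligand-like membrane protein, led in both (-5.59 ± 0.73, adjusted p = 0.000878, and -5.01 ± 0.73, adjusted p = 0.00426). Far fewer of all entries were called in these KO steps when they were fitted on the compared groups alone, as given above. Between genotypes 0 of 21 were called on any day, with a median of -0.80 on D4 beside -0.28 over all entries. That median includes KO D4 replicate 2, in which markers of regenerating myofibres summed to 58.5 TPM. Grb10 and Igf2r stand in this list and in the first.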

How the data were processed

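Muscle RNA was prepared with a SMARTER mRNA kit and sequenced as paired ends. The authors deposited TPM values per gene in 2 tables quantified separately, one of 24 injured libraries and one of 3 control libraries with the 3 WT D1 libraries, beside gene lengths and group means that were not used. The submitters' notes name mm10, and the aligner, the counting tool and the use of strand are not given in the sources used here. TPM carries no depth, so no counting error could be given.

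Each table was filtered at 1 TPM in at least 3 libraries, and log2(TPM + 1) was fitted across all groups of the table with limma 3.58.1 in R 4.3.3 (quantities in Python 3.11.15, numpy 2.4.6, pandas 2.3.3, scipy 1.17.1, figures in matplotlib 3.10.9), with Benjamini-Hochberg adjustment and a threshold of 0.05. Single quantities were tested by exact permutation. The fit was tested on simulated data. Labels gave the groups. Nothing states that libraries of a group came from separate animals, so that p-values measure the spread between libraries. Named were all 10 genes, the up to 5 called genes of each list with the largest change, and the 5 genes most like each gene. The genes and lists were chosen with earlier results of these data known.

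Same-numbered libraries deviated together (every r above 0.1) from D1 to D4 in KO muscle (0.19, 0.38 and 0.26) and from D4 to D7 in KO muscle (0.28, 0.44 and 0.13), and not in the other comparisons (from -0.40 to 0.39), and no label says what a number shares. Positions are from GENCODE M21 and sequences from RefSeq on GRCm38.p6. Alternatives were other filters, pseudocounts (0.1 and 5), scalings, library weights, fits on the compared groups, the replicate block and single libraries left out.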

Additional observations from a re-analysis of the deposited data

How the results depend on the processing

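TPM holds no depth, and with 3 libraries per group small differences between genotypes could not be called. Of the alternatives over called values of single genes, 295 of 346 kept direction and side of the threshold, 47 kept the direction alone and 4 reversed, and over uncalled values 220 of 248 kept their direction and 28 did not. Leaving out KO D4 and KO D7 replicate 2 together, the steps between days of the ratios, and leaving out D1 were chosen after seeing the data. The cause of the changes below was not tested.

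The count of genes called from D4 to D7 in WT muscle was 6 with library weights (10595 of 15718 entries called) and 2 on the compared groups alone (908 entries), and from 0 to 1 with each library left out. In KO muscle it was 0 from D1 to D4 on the compared groups alone. From D4 to D7 in KO muscle it was 1 with library weights (278 entries), 2 without both replicate 2 libraries and from 0 to 2 with each library left out. From D7 to D14 in KO muscle it was 0 without the filter, 4 with median-of-ratios scaling, 6 with library weights (7861 entries), 5 without both replicate 2 libraries, 0 on the compared groups alone and from 0 to 4 with each library left out. On WT D1 against control it was 3 under each of the other scalings and from 1 to 7 with each library left out.

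With the replicate number as a block, 7 genes were called from D1 to D4 in each genotype, 0 between genotypes and 5 on WT D1 against control, and the H19 to Igf2 difference of 0.81 had an exact sign-flip permutation p of 0.000977. The block changed no other call than those named for control muscle. The Igf1 to Igf2 difference was 0.20 without both replicate 2 libraries and from 0.23 to 0.59 with each left out. The Igfbp5 share difference was -0.385 percentage points without both and from -0.755 to 1.25 with each left out.

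Reversed on WT D1 against control were Igf1 (-0.0016, quantile), Igf2 (-0.25 median-of-ratios, -0.27 quantile) and Igfbp4 (-0.21, median-of-ratios). Reversed for KO minus WT on D4 were H19 (0.066 median-of-ratios, 0.36 without both, from -0.61 to 0.36 in single omissions), Igfbp5 (0.25 median-of-ratios, 0.13 quantile, 0.16 without the most abundant genes, 0.17 without both, from -0.23 to 0.17 in single omissions), Igfbp6 (-0.013 without both, from -0.24 to 0.45 in single omissions) and Igfbp7 (0.0073 median-of-ratios, 0.015 library weights). Reversed for the average over days were Igf1 (0.079 library weights, 0.084 without both), Igf1r (0.076 library weights), Igfbp5 (0.038 median-of-ratios, 0.0032 quantile, 0.014 without the most abundant genes, from -0.098 to 0.017 in single omissions), Igfbp6 (0.0090 median-of-ratios, 0.079 library weights, from -0.19 to 0.011 in single omissions) and Igfbp7 (0.077 median-of-ratios, 0.029 quantile, 0.053 without the most abundant genes, 0.14 library weights, 0.056 without both, from -0.063 to 0.025 in single omissions).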
